A study of Mus musculus with 28 samples.

Results

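The regions described are the off-chromosome fragments of the Six2 promoter and PE Six3 4C-seq libraries, that is, every restriction fragment with at least 1 read that did not lie on chromosome 17, the chromosome of both viewpoints. They numbered 33688 distinct fragments, of 99194 distinct fragments read in the 13 libraries analysed. Single libraries held 11363 (Six2 promoter WT), 10923 (Six2 promoter del36), 8256 (PE Six3 WT) and 6955 (PE Six3 del36). These were most of the fragments in each library, which held 12854, 12648, 10132 and 9587 fragments in all. A pair of very tall fragments, on chromosomes 8 and 2, is given apart from the rest.

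4C-seq (circular chromosome conformation capture with sequencing) cuts cross-linked chromatin, religates it, and sequences what became joined to a single chosen fragment, the viewpoint. The viewpoints were the promoter of Six2, a homeobox gene of kidney progenitors, and PE Six3, a poised enhancer of the forebrain and eye gene Six3. WT cells were the wild-type mouse embryonic stem cell (ESC) line E14Tg2a, and del36 cells were the same line carrying a deletion of the domain boundary that separates Six3 from Six2. The labels class all 4 libraries as ESC in 2i+LIF, whereas the growth protocol describes medium with serum and LIF. Whether del36 is a single clone was not given in the sources used here. Each combination of viewpoint and genotype had 1 library, so every difference given is between libraries, no test was made, and intervals (95%, exact Clopper-Pearson) cover counting error only. The 5 Gata6 and 4 Gria1 libraries of the series, each taken off its own viewpoint chromosome, serve as background; 4 of the Gata6 libraries were from anterior neural progenitor cells rather than ESC, and 7 of the 9 carried knock-ins of parts of a Sox1 enhancer at Gata6 or Gria1.

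Most ligation in 4C is to the viewpoint's own neighbourhood, and contacts with other chromosomes are spread thinly over the genome. In interphase nuclei, gene-dense chromosomes and stretches tend towards the interior and meet other chromosomes more than gene-poor ones do. E14Tg2a is a male line, so X and Y are each present as a single copy. PCR can turn a single ligation event into many reads, so the number of covered fragments and the number of reads are given side by side.

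The fragments are stretches between neighbouring CATG motifs, the site that NlaIII cuts. Of the fragment ends that fell inside a RefSeq promoter window (250 bases before to 50 after an annotated gene start, GRCm38.p6), 99 of 99 starts and 73 of 73 ends lay next to CATG. Of all 21238 such windows of 300 bases, 56.3% held CATG, which reads the same on both strands. Sequence could be read only inside these windows, and 8 off-chromosome fragments, from 64 to 211 bp long, lay wholly inside one. The following 3, with the plus strand shown and the cut site that flanks each end, which the coordinates leave out, in capitals, are the tallest of these 8 and show what a covered fragment is.
Casp14 promoter fragment, chr10:78718422-78718538: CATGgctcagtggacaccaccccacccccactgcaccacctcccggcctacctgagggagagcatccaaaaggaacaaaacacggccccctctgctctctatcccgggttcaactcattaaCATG
Fam13c promoter fragment, chr10:70440527-70440603: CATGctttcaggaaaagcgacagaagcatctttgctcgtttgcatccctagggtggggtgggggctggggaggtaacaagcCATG
Klhl40 promoter fragment, chr9:121777551-121777614: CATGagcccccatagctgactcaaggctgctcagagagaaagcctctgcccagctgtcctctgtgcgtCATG
The Casp14 fragment (a caspase of skin cornification) had 325 reads from the Six2 promoter in WT and 93 in del36. The Fam13c fragment had 201 in WT and 0 in del36. The Klhl40 fragment (a muscle protein of the thin filament) had 1 in WT and 23 in del36. All 3 were at 0 from PE Six3 and in the 9 other libraries. They cover the range seen among Six2 promoter fragments, from recurrence in both genotypes to reads in a single library.

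A further pair shows how alike fragments of repeated gene families can be. They lie at the starts of Gm3194 and Gm38418, predicted genes 2.20 Mb apart in the duplicated stretch near the start of chromosome 14. The fragments are both 113 bp long and differ at 2 bases.
Gm3194 promoter fragment, chr14:5460527-5460639: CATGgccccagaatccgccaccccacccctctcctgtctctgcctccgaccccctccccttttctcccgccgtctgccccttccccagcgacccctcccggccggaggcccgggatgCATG
Gm38418 promoter fragment, chr14:7658775-7658887: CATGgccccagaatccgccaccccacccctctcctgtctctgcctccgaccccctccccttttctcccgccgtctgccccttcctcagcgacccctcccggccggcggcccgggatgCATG
The first was read once, in Six2 promoter WT, and the second once, in Six2 promoter del36. Between copies this alike, the placement of a read rests on few bases, and the treatment of reads that map to several places was not given in the sources used here.

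The windows below belong to promoters covered from the same viewpoint in both genotypes. Macroh2a1 codes for a histone variant of silent chromatin and Slc37a4 for the glucose-6-phosphate transporter. CATG is in capitals where it occurs.
Macroh2a1 promoter, chr13:56135501-56135800: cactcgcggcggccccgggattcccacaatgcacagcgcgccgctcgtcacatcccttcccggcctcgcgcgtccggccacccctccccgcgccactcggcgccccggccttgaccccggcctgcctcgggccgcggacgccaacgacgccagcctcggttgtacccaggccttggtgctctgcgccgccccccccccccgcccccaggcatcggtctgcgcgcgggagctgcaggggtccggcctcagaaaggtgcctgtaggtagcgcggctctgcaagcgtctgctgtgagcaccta
Slc37a4 promoter, chr9:44396849-44397148: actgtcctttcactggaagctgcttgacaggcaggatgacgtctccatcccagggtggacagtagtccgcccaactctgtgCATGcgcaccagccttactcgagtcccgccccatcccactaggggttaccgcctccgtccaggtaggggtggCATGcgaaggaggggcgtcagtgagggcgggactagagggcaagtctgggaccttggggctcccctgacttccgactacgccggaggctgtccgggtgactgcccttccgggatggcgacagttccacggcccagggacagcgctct
The Macroh2a1 window holds no CATG and lies inside a single 2073-bp fragment with 524 reads (WT) and 392 reads (del36) from the Six2 promoter. The Slc37a4 window holds 2 CATG sites, and the 820-bp fragment that begins at the second had 16 and 5 reads from PE Six3. Genes with a promoter window covered in both genotypes numbered 41 from the Six2 promoter, on 40 fragments, and 6 from PE Six3, on 5 fragments. A gene can have several windows, so these numbers of genes cannot be set against the numbers of windows that follow. Of the 20126 windows off chromosome 17, fragments overlapped 140 and 119 in the Six2 promoter libraries (WT and del36) and 56 and 61 in the PE Six3 libraries.

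Off-chromosome reads made up 11.7% of all reads in Six2 promoter WT (719746 of 6169568 reads) and 10.5% in del36 (638698 of 6056180). From PE Six3 they made up 6.76% in WT (522591 of 7730539) and 17.2% in del36 (385063 of 2238911). PE Six3 del36 was thus highest of the 13 libraries, and the 9 background libraries ranged from 1.14% to 14.8% with a median of 5.12%. Its viewpoint fragment held 35.2% of its reads, against 66.3% in PE Six3 WT, 83.9% and 83.6% from the Six2 promoter, and 75.5% to 96.5% in the background libraries. The part that this lower share on the viewpoint fragment has in the off-chromosome share was not tested. With the viewpoint and 10 kb on each side left out of the total, the off-chromosome share was 24.8% (WT) and 44.6% (del36) from PE Six3, and the Six2 promoter libraries were now higher, at 75.7% and 67.3%.

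**Figure D1:**
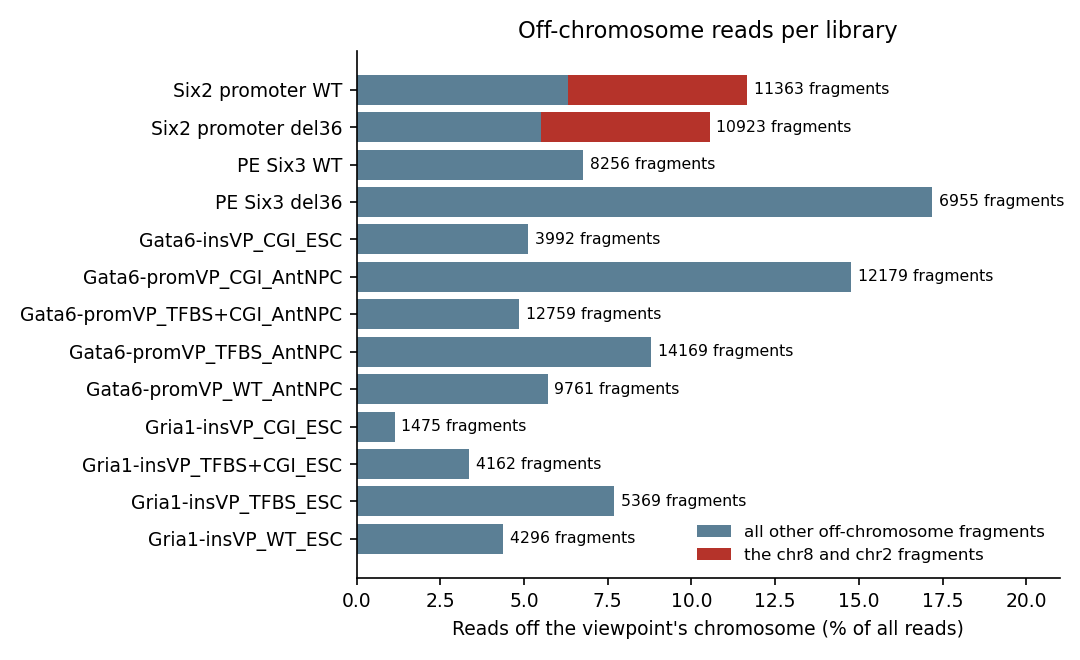
Share of all reads (percent, horizontal axis) on chromosomes other than the viewpoint's own, in the 13 libraries, with the pair of tall fragments in red and the number of covered off-chromosome fragments beside each bar. The red part is present in the Six2 promoter libraries, 46.0% and 47.9% of their off-chromosome reads, and in no other library; PE Six3 del36 has the longest bar, 17.2%.

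The pair of tall fragments was read in the Six2 promoter libraries and in no other. The fragment chr8:11593412-11593898 (mm10), 487 bp long and 17.7 kb from Ankrd10, had 267759 reads in WT (4.34% of all reads) and 179012 in del36 (2.96%). The fragment chr2:32220400-32220481, 82 bp long and inside Prrc2b, had 63107 reads in WT (1.02%) and 126635 in del36 (2.09%). Both were at 0 in the other 11 libraries. In the PE Six3 libraries the interval for a count of 0 reached up to 4.77e-05% (WT) and 0.000165% (del36) of reads. Together they held 46.0% (WT) and 47.9% (del36) of the off-chromosome reads of these libraries. The share of the chromosome 8 fragment was lower in del36 (log2 ratio of shares -0.55) while that of the chromosome 2 fragment was higher (1.03), so the ratio of one to the other was 4.24 in WT and 1.41 in del36.

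Both fragments stood almost alone. Within 100 kb of the chromosome 8 fragment there were 2 other covered fragments with 5 reads in WT and 1 with 1 read in del36. Within 1 Mb there were 16 with 507 reads and 14 with 525. The surroundings of the chromosome 2 fragment were better covered, with 6 other fragments within 100 kb in each genotype (414 reads in WT, 70 in del36). Within 1 Mb of it there were 38 fragments with 1047 reads in WT and 24 with 296 in del36. The reads of either tall fragment were thus over 100 times those of everything else within 100 kb. The genome sequence at these fragments was not analysed here, and whether primers bind there was not tested. Without the pair, off-chromosome reads were 6.30% and 5.50% of all reads in the Six2 promoter libraries, and PE Six3 WT (6.76%) was then above both.

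A few fragments held most of the remaining reads. Fragments read once made up 32.7% (Six2 promoter WT), 36.0% (Six2 promoter del36), 56.6% (PE Six3 WT) and 37.5% (PE Six3 del36) of the lists, and the median fragment had 3, 3, 1 and 3 reads. In the same order, 820, 732, 574 and 803 fragments had 100 reads or more. These held 70.9%, 70.1%, 93.8% and 81.2% of the off-chromosome reads left without the pair. PE Six3 WT was the most uneven, with 116 fragments of 1000 reads or more, against 30, 19 and 49 in the others. It also had the largest share read once. Depth differed as well: at 385063 off-chromosome reads, the total of PE Six3 del36, the expected number of covered fragments was 9232 and 9099 for the Six2 promoter and 6940 for PE Six3 WT, beside 6955 for PE Six3 del36. At equal reads the PE Six3 libraries thus covered nearly the same number of fragments, and fewer than the Six2 promoter libraries. The reads thinned here include the pair, which held 46.0% and 47.9% of the off-chromosome reads from the Six2 promoter. The expected numbers for that viewpoint thus rest on fewer reads outside the pair.

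Beside the pair, the fragments with most reads from the Six2 promoter were tall in both genotypes. The fragment chr2:126982399-126983276, 25.4 kb from Ap4e1 (a subunit of the AP-4 trafficking adaptor), had 11945 reads in WT and 4465 in del36. The fragment chr11:4308035-4308292, 35.5 kb from Lif, the cytokine that keeps ESC undifferentiated, had 10612 and 7941. In the overlapping genes Myo15b, a myosin, and Recql5, a DNA helicase, chr11:115892328-115892605 had 6968 and 3407 reads. In Ube3c, a ubiquitin ligase, chr5:29584438-29584712 had 4408 and 1855, and in Terb2, a gene of meiotic telomere attachment, chr2:122196332-122196435 had 4005 and 484. The remaining members of the 5 tallest in del36 were chr12:100083773-100084589 (3490 and 5317 reads), 21.1 kb from the potassium channel gene Kcnk13, and chr5:33805526-33806091 (1838 and 1961 reads), 14.6 kb from the histone methyltransferase gene Nsd2. All 7 were at 0 from PE Six3 in both genotypes and in the 9 background libraries.

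From PE Six3 the tallest fragments differed between the genotypes. In WT the fragment in the potassium channel gene Kcnk5 (chr14:20165161-20165599) had 9245 reads and that in Slc23a2, a vitamin C transporter (chr2:132120371-132120398), had 6510; both were at 0 in del36. A fragment in Aatf, a gene of ribosome assembly and cell survival (chr11:84474096-84474125), had 6833 reads in WT and 2 in del36. The fragment chr12:70636693-70636834, 169 kb from Tmx1, had 7083 and 2, and chr10:83878869-83879012 had 6662 and 0. In del36 the tallest was chr9:79336729-79336826, 262 kb from the collagen gene Col12a1, with 1876 reads against 1 in WT. It was followed by fragments in Rarb, a retinoic acid receptor (1453 reads), Akap6, a kinase anchor of heart and brain (1402), and Ank3, the ankyrin of axon initial segments (1388), all at 0 in WT. The fragment chr19:60876363-60876552, 1.83 kb from the mitochondrial peroxidase gene Prdx3, had 1394 reads in del36 and 2 in WT. None of these 10 fragments was read from the Six2 promoter or in a background library.

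By chromosome, the Six2 promoter libraries covered gene-rich chromosomes more densely, and among the PE Six3 libraries WT was nearly flat. The 18 autosomes had a median of 4.46 covered fragments per Mb in Six2 promoter WT and 4.24 in del36, with chromosome 11 highest in both (6.38 and 5.50). In PE Six3 WT the median was 3.17 and the autosomes lay between 2.98, on chromosome 11, and 3.48, on chromosome 4. In PE Six3 del36 the median was 2.71, with chromosome 3 lowest (2.28) and chromosome 12 highest (3.62), a ratio of 1.59 that was about as wide as in Six2 promoter del36 (1.57) and wider than in PE Six3 WT (1.17). Chromosome 11 was thus highest from the Six2 promoter in both genotypes and lowest from PE Six3 in WT. Across the 18 autosomes, which share the library and its depth, Spearman's correlation of fragments per Mb with protein-coding genes per Mb was, as a description, 0.74 (WT) and 0.65 (del36) for Six2 promoter libraries. For PE Six3 it was -0.04 (WT) and 0.22 (del36). In the background libraries it ranged from 0.16 to 0.77 (Gata6) and from -0.38 to 0.22 (Gria1). Chromosome 11 was also the highest autosome in some Gata6 libraries, so neither trait was particular to the Six2 promoter. Reads by chromosome were not compared with gene density. Because of the pair, chromosome 8 held 40.2% (WT) and 30.7% (del36) of off-chromosome reads from the Six2 promoter and chromosome 2 held 14.9% and 24.4%. Without the pair these shares were 5.53% and 5.14% for chromosome 8, and 11.4% and 8.72% for chromosome 2.

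**Figure D2:**
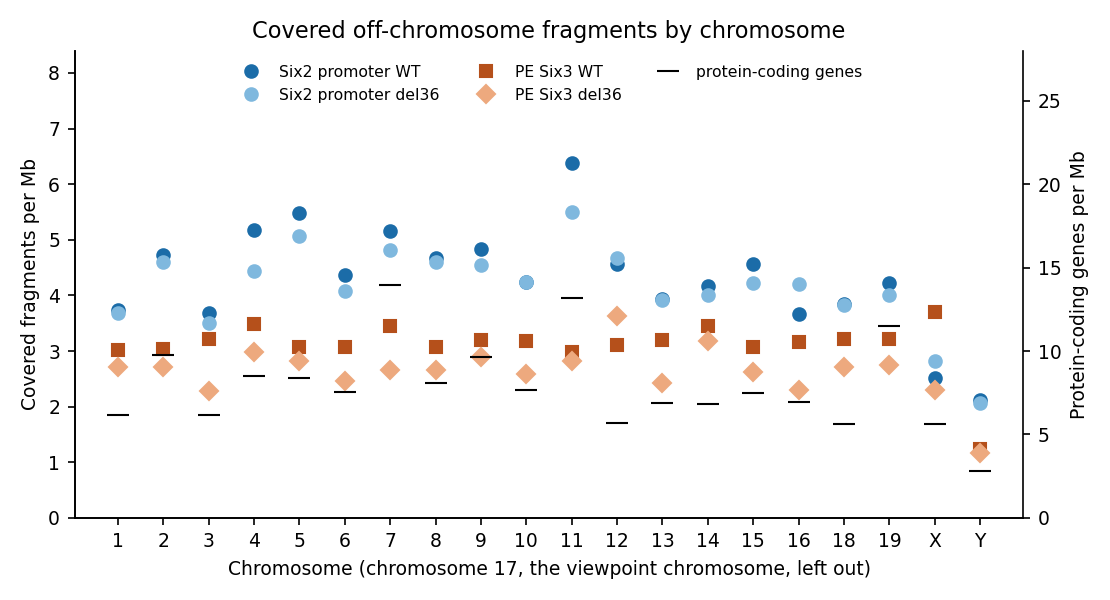
Covered fragments per Mb (left axis) on each chromosome but 17, as a point for each of the 4 libraries, with protein-coding genes per Mb as black dashes (right axis). The blue Six2 promoter points peak on chromosome 11, at 6.38 and 5.50, while the autosome squares of PE Six3 WT stay between 2.98 and 3.48 and its X square lies above them at 3.70.

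X and Y, present once in these male cells, were less covered than the autosomes from the Six2 promoter. X had 2.52 (WT) and 2.81 (del36) fragments per Mb, 0.566 and 0.664 times the autosome median. From PE Six3 it had 2.30 in del36 (0.850 times) and, in WT, 3.70, which was above the autosome median (1.17 times). In the background libraries X stood at 0.696 to 0.961 (Gata6) and 0.814 to 1.37 (Gria1) times the autosome median, so the PE Six3 WT value lay inside the Gria1 range. The value above the autosome median in PE Six3 WT was not found among fragments with 10 reads or more, where X stood at 0.409, 0.374, 0.501 and 0.482 times the autosome median in the 4 libraries, on 96, 84, 41 and 80 X fragments. Y had 2.12 (WT) and 2.06 (del36) fragments per Mb in the Six2 promoter libraries. In the PE Six3 libraries it had 1.24 (WT) and 1.17 (del36).

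Along the autosomes and X, fragments from the Six2 promoter lay towards the distal end, as genes do, and those from PE Six3 more towards the centromere, as in the background libraries. Each chromosome, less a stretch of fixed length at its centromere end, was split into 5 equal parts. The most distal part held 25.6% (WT) and 24.3% (del36) of Six2 promoter fragments and 18.9% and 21.8% of PE Six3 fragments. It also held 25.0% of protein-coding genes. In the 9 background libraries it held 15.9% to 23.0%, below both Six2 promoter libraries, with the PE Six3 libraries inside that range. The part at the centromere held 18.5% (WT) and 19.8% (del36) for the Six2 promoter, 24.1% and 24.4% for PE Six3, and 19.7% of genes. In the background libraries it held 21.2% to 25.8%, a range that included both PE Six3 libraries and lay above both Six2 promoter libraries.

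Nearly every stretch of the genome was touched in some library. Of 2637 bins of 1 Mb, 2453 and 2444 held a fragment from the Six2 promoter (93.0% in WT, 92.7% in del36) and 2388 and 2315 from PE Six3 (90.6% and 87.8%). Only 65 bins held none in any of the 4 libraries, and 1991 (75.5%) were covered in all 4. Gene content followed coverage: bins covered in none held a mean of 1.77 protein-coding genes, those covered in 2 libraries 3.62, in 3 libraries 5.17, and in all 4 libraries 8.97. Within a library, covered bins held 8.21 to 8.46 genes on average, and uncovered bins 3.14 and 3.30 (Six2 promoter) or 4.94 and 3.86 (PE Six3).

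The number of fragments per bin depended on gene density most in Six2 promoter WT and least in PE Six3 WT. Gene-dense bins (15 or more protein-coding genes, 437 bins) held a mean of 7.21 fragments in Six2 promoter WT and gene-poor bins (2 or fewer, 890 bins) 2.54, a ratio of 2.84 (2.69 to 3.00). In Six2 promoter del36 the means were 6.42 and 2.66, a ratio of 2.42 (2.29 to 2.55). In PE Six3 WT they were 3.81 and 2.87, a ratio of 1.33 (1.25 to 1.41), and in PE Six3 del36 3.75 and 1.95, a ratio of 1.92 (1.80 to 2.06). The Gata6 libraries had ratios of 1.71 to 2.30 (n = 5) and the Gria1 libraries 0.800 to 1.20 (n = 4). Both Six2 promoter libraries therefore lay above all 9 background libraries, PE Six3 del36 lay within the Gata6 range, and PE Six3 WT between the Gata6 and Gria1 ranges.

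**Figure D3:**
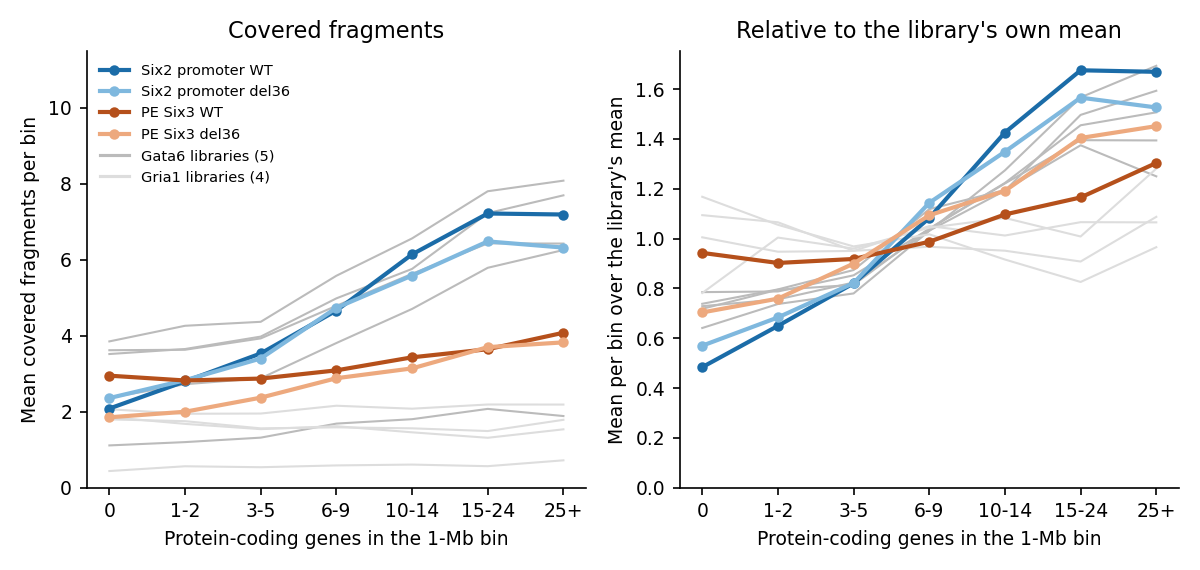
Mean covered fragments per 1-Mb bin (left) and the same over the library's mean (right), by the number of protein-coding genes in the bin, for the 4 libraries (colours) and the 9 background libraries (grey). In bins with no gene Six2 promoter WT had 2.09 fragments and PE Six3 WT 2.95, while in bins of 15 to 24 genes they had 7.22 and 3.65.

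In all 4 libraries the ratio was higher among fragments with 10 reads or more, and lower among fragments read once, than over all fragments. Among fragments with 10 reads or more the ratio was 3.75 (WT) and 3.35 (del36) for the Six2 promoter. For PE Six3 it was 2.67 (WT) and 2.29 (del36), so that WT was now above del36, the opposite order to that over all fragments. Among fragments read once it was 2.01, 1.82, 1.16 and 1.50. Counted against the fragments that the 9 background libraries covered in the same bins, the ratio was 1.80, 1.53, 0.839 and 1.22; PE Six3 WT thus covered gene-dense bins less than gene-poor ones by that measure. The order of the viewpoints, with both Six2 promoter libraries above both PE Six3 libraries, held over all fragments, over fragments with 10 reads or more and over fragments read once. The count against the background libraries cannot bear on this order, because it divides the ratios of all 4 libraries by the same number. By reads without the pair (4.81, 3.57, 3.66 and 2.08) the order did not hold, PE Six3 WT being above Six2 promoter del36.

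By the share of fragments inside genes, the order of the 4 libraries was the same as by gene density of bins. Fragments lay inside protein-coding genes in 45.5% (Six2 promoter WT), 41.7% (Six2 promoter del36), 33.2% (PE Six3 WT) and 39.4% (PE Six3 del36) of cases, while such genes make up 37.8% of the length. A fragment lay in or within 50 kb of 53.1% (WT) and 51.1% (del36) of all protein-coding genes in the Six2 promoter libraries. In the PE Six3 libraries this held for 36.5% and 36.1% of genes, and these shares are the background for 3 gene lists. Shares of genes depend on the number of fragments in a library (11363, 10923, 8256 and 6955), so the viewpoints cannot be compared by them. Of 74 developmental regulators off chromosome 17, mostly transcription factors and signals of the kind that Six3 and Six2 are, 47 and 43 had a fragment in the Six2 promoter libraries (63.5% and 58.1%), and 21 and 19 in the PE Six3 libraries (28.4% and 25.7%). A fragment in all 4 libraries was found for 7 of the 74 (9.46%), against 7.18% of all genes. With 74 genes these shares differ from those of all genes by few genes, and no difference was tested. The genes named next were picked from the 7 with a fragment in all 4 libraries, so they do not represent the 74. Bmp7, a signal of kidney and eye development, had 4, 3, 2 and 2 fragments in the 4 libraries, and the kidney and eye factor Pax2 had 3, 1, 2 and 1. Gata4, a factor of heart and endoderm, had 1, 2, 2 and 2, and Gsc, a homeobox gene of the gastrula organizer, had 2, 3, 1 and 1.

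Neither genes known to be active in ESC nor tissue genes known to be silent there had the larger share in all 4 libraries. Of 40 active genes, 22 (WT) and 25 (del36) had a fragment in the Six2 promoter libraries (55.0% and 62.5%), and 13 and 16 in the PE Six3 libraries (32.5% and 40.0%). Of 44 silent tissue genes, 25 and 24 had one in the Six2 promoter libraries (56.8% and 54.5%), and 15 and 13 in the PE Six3 libraries (34.1% and 29.5%). By covered fragments per Mb the order of the lists was different, with active genes higher in Six2 promoter WT (9.09 against 7.00) and PE Six3 WT (3.68 against 3.29), silent genes higher in Six2 promoter del36 (8.85 against 7.36), and both at nearly the same value in PE Six3 del36 (4.33 and 4.32). A fragment in all 4 libraries was found for 3 of the 40 active and 4 of the 44 silent genes, and the examples were picked from these. The actin gene Actg1 had 4, 2, 1 and 1 fragments with 216, 4, 42 and 40 reads, and the tubulin gene Tuba1b 2, 1, 1 and 2 fragments with 13, 1, 3251 and 168 reads. Among silent genes, the neutrophil elastase gene Elane had 2, 2, 1 and 1 fragments with 25, 2, 386 and 2 reads, and the cardiac myosin gene Myh6 2, 1, 1 and 1 with 122, 13, 1 and 76 reads. All fragment numbers given here count the gene and 50 kb on each side, and neighbouring genes share fragments.

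Many of the bins with most fragments held more protein-coding genes than the mean of 7.90 per bin, and others lay in duplicated stretches. The bin chr6:47000001-48000000, with the Polycomb gene Ezh2, the cullin gene Cul1 and zinc finger genes, led in both Six2 promoter libraries, with 42 (WT) and 33 (del36) fragments, and held 17 and 6 from PE Six3. Most lay in a 138-kb stretch, chr6:47647849-47786211, with 38, 32, 17 and 2 fragments holding 130, 77, 332 and 61 reads. Fragments there recurred at a spacing of 4.32 kb (35 pairs). The same stretch held 9 to 30 fragments in the 5 Gata6 libraries and none in the 4 Gria1 libraries. The bins named next, high from the Six2 promoter, held 12, 11, 23 and 14 genes in turn, so most were below the threshold for gene-dense bins. The bin chr11:118000001-119000000 (Timp2, a protease inhibitor, and Rbfox3, a neuronal splicing factor) had 25 and 11 fragments against 7 and 6 from PE Six3. The bin chr8:120000001-121000000 (the interferon factor Irf8) had 17 and 21 against 4 and 2. The bin chr5:120000001-121000000 (the LIM homeobox gene Lhx5) had 18 and 19 against 4 and 5. The bin chr8:121000001-122000000, with the forkhead genes Foxf1, Foxc2 and Foxl1, had 12 and 18 against 4 and 7.

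PE Six3 bins high in fragments were mostly also high in the Six2 promoter libraries and in most background libraries. In chr9:3000001-4000000, at the start of chromosome 9, PE Six3 had 27 (WT) and 29 (del36) fragments, the Six2 promoter 9 and 20, and the 9 background libraries together 127. The neighbouring bins from 3 to 8 Mb of chromosome 14, whose genes are mostly predicted ones, and its bin at 19 Mb had between 7 and 24 fragments in each of the 4 libraries. In 6 of these bins on chromosomes 9 and 14 the background libraries together had more than 5 times their median number of fragments. These 6 held 0.651%, 0.760%, 1.14% and 1.84% of the fragments of the 4 libraries, so they were a larger part of PE Six3 del36 than of Six2 promoter WT. The mean per bin was higher in these 6 than in all other bins in 12 of the 13 libraries, the exception being 1 Gria1 library with 0.500 against 0.565. Bins with an order of their own were chr4:88000001-89000000, the interferon alpha cluster, with 3, 1, 20 and 5 fragments, and chr4:147000001-148000000, a zinc finger cluster, with 14, 9, 2 and 21. Of the 10 bins with the highest minimum over the 4 libraries, 7 lay in the stretches at the starts of chromosomes 9 and 14 or at 19 Mb of chromosome 14. Among the other 3 were chr4:137000001-138000000 with Wnt4, a kidney-inducing signal (15, 12, 10 and 7), and chr1:133000001-134000000 with Mdm4, a p53 inhibitor (11, 10, 7 and 8).

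Reads per bin differed widely between genotypes. Of 2175 bins with 10 reads or more in either Six2 promoter library, 529 (24.3%) had a share of off-chromosome reads more than 4-fold higher in del36 and 551 (25.3%) more than 4-fold lower, 1080 (49.7%) in all. From PE Six3, 1051 of 1955 bins (53.8%) were higher in del36 and 435 (22.3%) lower, 1486 (76.0%) in all. A bin with 0 reads in a library was set to 3 reads. The median log2 ratio was -0.21 (SD over bins 3.00) for the Six2 promoter libraries and 2.52 (SD over bins 4.44) for PE Six3. Centred on that median, 575 Six2 promoter bins were higher and 502 lower; 590 PE Six3 bins were higher and 734 lower, so the direction in which more bins lay turned at both viewpoints under this scaling. In the median tested bin the tallest fragment held 78.5% (Six2 promoter) or 90.1% (PE Six3) of the reads. By shares of covered fragments in place of reads, 128 and 225 bins passed 4-fold. Of 1689 bins tested from both viewpoints, 820 (48.5%) passed 4-fold in the Six2 promoter libraries and 1275 (75.5%) in those of PE Six3. Bins more than 4-fold higher in del36 from both numbered 231 (13.7%), and 99 (5.86%) were lower from both. Opposite calls were made for 296 (17.5%). Whether calls at both viewpoints coincided more often than these high single rates alone would give was not tested.

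Single fragments recurred between genotypes far more often than between viewpoints. The Six2 promoter libraries shared 3032 fragments, 26.7% of the WT list and 27.8% of the del36 list. The PE Six3 libraries shared 535, which is 6.48% of the WT list and 7.69% of the del36 list. Between the viewpoints, 57 were shared in WT (0.502% of the Six2 promoter list and 0.690% of the PE Six3 list) and 101 in del36 (0.925% and 1.45%). Across both viewpoint and genotype the numbers were 30 (Six2 promoter WT and PE Six3 del36) and 112 (Six2 promoter del36 and PE Six3 WT). The 112 made up 1.03% of the Six2 promoter del36 list and 1.36% of the PE Six3 WT list. Sharing with background libraries ranged from 0.254% to 0.554% (Gata6) and 0.00945% to 0.208% (Gria1) of the Six2 promoter WT list. For PE Six3 del36 it ranged from 0.700% to 1.65% and 0.166% to 1.36%. Sharing between the Six2 and Six3 viewpoints of 1 genotype, which lie on the same chromosome, was inside the range of the Gata6 libraries for 3 of the 4 lists. For Six2 promoter del36 (0.925%) it was just above that range, 0.530% to 0.870%. Between viewpoints of different genotypes, the share of the 112 fragments was above the Gata6 range for both lists. That range was 0.452% to 1.17% for PE Six3 WT. The share of the 30 fragments was inside the Gata6 range for Six2 promoter WT and below it for PE Six3 del36.

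**Figure D4:**
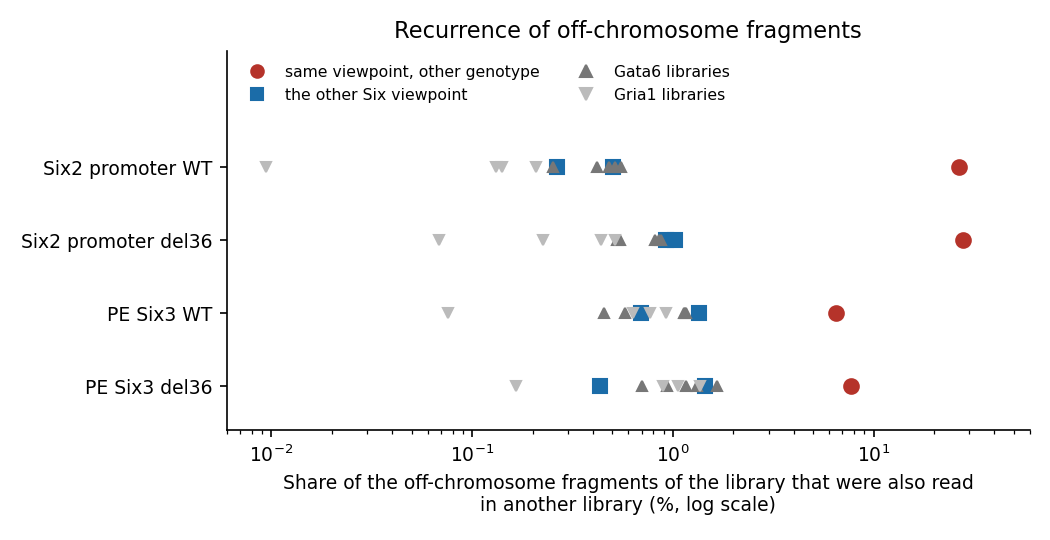
Share of the off-chromosome fragments of each of the 4 libraries that was also read in another library (percent, log scale): the same viewpoint in the other genotype (red), the other Six viewpoint (blue), Gata6 (dark grey) and Gria1 (light grey) libraries. The red points lie at 26.7%, 27.8%, 6.48% and 7.69%, and all other points lie at 1.65% or lower.

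Recurrence depended on the number of reads, and differently at each viewpoint. In Six2 promoter WT, 16.8% of fragments read once were found in del36, as were 36.8% of those with 10 to 99 reads, 56.2% of those with 100 to 999 and 26 of 30 with 1000 or more, which had a median of 460.5 reads there. From del36 to WT the shares were 15.0%, 42.1%, 58.2% and 15 of 19. The 10 tallest of either library were all found in the other, and so were 68 of the 100 tallest of WT and 50 of the 100 tallest of del36. In PE Six3 WT, recurrence in del36 stayed between 5.15% and 11.4% in every class of reads, with 10 of 116 fragments of 1000 reads or more found there. In PE Six3 del36, 25 of 49 fragments of 1000 reads or more were found in WT, with a median there of 1 read.

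The reads behind a shared fragment were often unequal. Of the 535 fragments shared from PE Six3, 291 (54.4%) had exactly 1 read in WT, and 193 of these had 10 reads or more in del36, 129 of them 100 or more. In the other direction 115 had 1 read in del36, and 29 of these had 10 or more in WT. From the Six2 promoter, 624 of 3032 (20.6%) had 1 read in WT, 307 of them with 10 or more in del36, and 588 had 1 read in del36, 220 of them with 10 or more in WT. Fragments with 2 reads or more in both genotypes numbered 1950 from the Six2 promoter (17.2% and 17.9% of the lists) and 179 from PE Six3 (2.17% and 2.57%). Those with 10 or more in both numbered 880 and 57. Whether such single reads passed between libraries during preparation or sequencing was not tested. Shared fragments held 78.3% (WT) and 76.4% (del36) of the off-chromosome reads from the Six2 promoter, the pair of tall fragments included, and 12.1% and 25.3% from PE Six3.

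**Figure D5:**
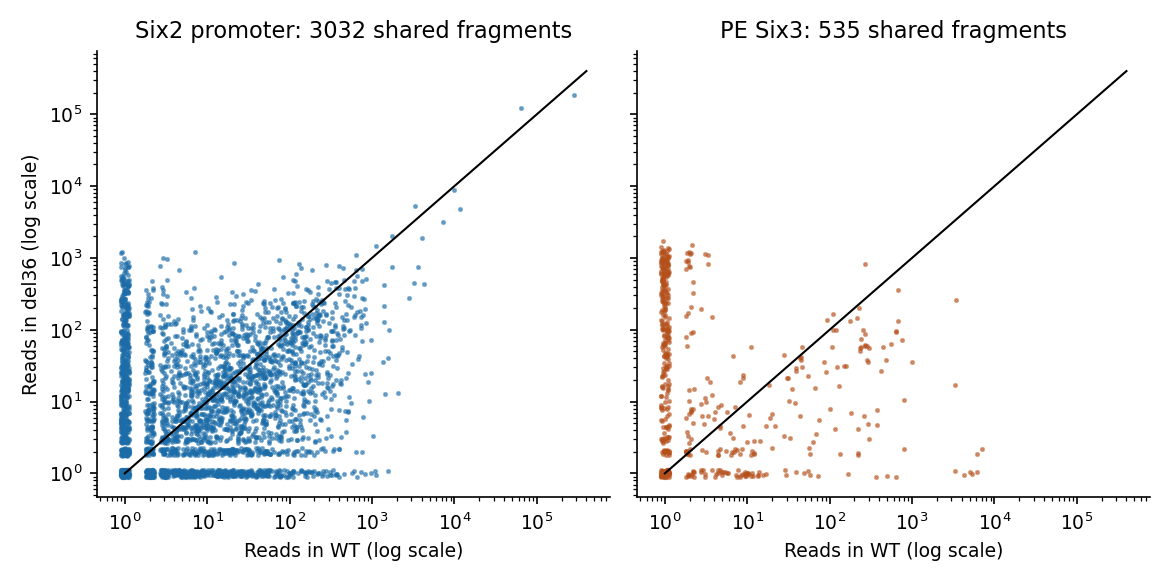
Reads in WT (horizontal) and del36 (vertical) of each off-chromosome fragment shared by both genotypes, on log axes, from the Six2 promoter (left, 3032 fragments) and PE Six3 (right, 535), with the line of equal reads; points are spread slightly so that equal values do not hide each other. The pair of tall fragments stands at the upper right of the left panel, and the right panel has a column of 291 fragments with 1 read in WT.

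Fragments tall in both PE Six3 libraries were few, and some were tall elsewhere too. Ranked by the lower of both counts, 7 of the first 20 were also read in a background library and 6 from the Six2 promoter. The fragment chr10:21696974-21697636, 185 kb from the kinase gene Sgk1, came first, with 674 reads in WT and 374 in del36. It was followed by chr2:98662324-98662509 with 258 and 771 reads, by chr10:108061524-108061724, 100 kb from the myosin phosphatase gene Ppp1r12a, with 3391 and 249, and by chr14:19417282-19417600 with 207 and 186. The chromosome 2 and chromosome 14 fragments were each read in 8 of the 9 background libraries and from the Six2 promoter, whereas both chromosome 10 fragments were at 0 there. A fragment lower in the order and picked after its values were seen, chr14:57932934-57933147 in the mitochondrial calcium uptake gene Micu2, had 724 and 119 reads and was likewise at 0 in the other 11 libraries.

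Recurrence was also counted for fragments near to each other. A window of 10 kb on each side is far wider than a fragment, so these shares cannot be set against those of identical fragments. Another fragment within 10 kb, the same fragment left out, was found in del36 for 12.2% of Six2 promoter WT fragments and in PE Six3 WT for 6.94%. Against the Gata6 libraries this share was 4.00% to 13.3% and against the Gria1 libraries 1.16% to 3.70%, so the value between genotypes lay inside the range of the Gata6 libraries. From PE Six3 WT to del36 it was 7.87%, below the highest value found with a Gata6 library, 12.5%. These shares depend on the length of the list searched, which differed between libraries.

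Only 4 fragments were read in all 4 libraries, and 3 of them were read in the background libraries too. The fragment chr2:98662324-98662509, 1031 kb from the nearest gene, Lrrc4c, had 377, 506, 258 and 771 reads and was present in 8 of the 9 background libraries, with 8 to 884 reads. The fragment chr14:19415878-19415931 had 1, 60, 110 and 169 reads and was present in 8 of 9. The fragment chr11:56910361-56910414, with 4, 6, 5 and 1 reads, was the viewpoint fragment of the Gria1 libraries, where it held 1747038 to 6870941 reads; it was also read 1 to 4 times in 4 of the 5 Gata6 libraries. The remaining fragment, chr11:98088123-98089064 in Fbxl20, a ubiquitin ligase subunit, had 1, 20, 2 and 7 reads and was in none of the 9. In any genotype, 242 fragments were read from both viewpoints, 1.26% of the 19254 read from the Six2 promoter and 1.65% of the 14676 read from PE Six3. Of these, 67 (27.7%) were also read in a background library, against 2.20% and 4.61% of all fragments of the Six2 promoter and PE Six3. Among those in no background library were fragments in Tfap2c, a germ line and trophoblast factor (chr2:172546616-172547787; 19, 127, 7 and 0 reads), in Hdac7, a histone deacetylase (chr15:97811445-97811578; 7, 0, 10 and 7), and in Afg1l, a mitochondrial ATPase (chr10:42324721-42324776; 266, 23, 6 and 0).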

How the data were processed

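Chromatin was cut with NlaIII, religated, cut with DpnII, circularised and amplified by inverse PCR, per the labels' protocols. The authors deposited 1 table per library that lists covered fragments with their RPM (reads relative to library depth); mapping used HISAT2 and mm10, per the submitters' processing notes, while version and read filters were not given in the sources used here. Every RPM value was a whole multiple of the smallest value of their library within a tolerance of 0.1 (100% of values), so reads were recovered by division; totals of the 4 libraries ran from 2238911 to 7730539. Of 28 samples listed, 13 libraries were used, grouped by title, and the other samples were not analysed here.

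In each library the tallest fragment served as viewpoint. Fragments were assigned by midpoint to 1-Mb bins, and protein-coding genes and promoter sequences came from RefSeq tables (GRCm38.p6, the same assembly as mm10). A bin was called between genotypes past 4-fold, with 10 reads or more in either library; 3 reads stood in for 0. With 1 library per condition no test was made, which also holds for a count model on recovered reads. Members, gene lists and rules were chosen with earlier results of these data known. Genes named from the gene lists are examples picked from those with a fragment in all 4 libraries. Named fragments are the 5 tallest of each library, the tallest shared ones, and examples of promoters and shared fragments picked after their values were seen; named bins are from the 5 with most fragments in each library and the 10 with the highest minimum; some items that these rules select are not reported here. The code (Python 3.11.15, pandas 2.3.3, NumPy 2.4.6, SciPy 1.17.1) was tested on simulated data. Alternatives are in the closing section.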

Additional observations from a re-analysis of the deposited data

Results flagged for a closer look

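Several measures moved in opposite directions between WT and del36 at the 2 viewpoints, each with 1 library per condition, so these differences were not tested. Values are the log2 ratio of del36 to WT from the Six2 promoter minus that from PE Six3. The off-chromosome share of reads had log2 ratios of -0.15 and 1.35, a difference of -1.49, and without the pair of tall fragments -0.20 and 1.35, a difference of -1.54. The share of fragments read once had 0.14 and -0.59, a difference of 0.73. The ratio of gene-dense to gene-poor bins had -0.23 and 0.54, a difference of -0.77, and this opposition was not seen among fragments with 10 reads or more, where the ratio was lower in del36 at both viewpoints. Fragments per Mb of X over the autosome median had 0.23 and -0.46, a difference of 0.69, and this opposition too was not seen among fragments with 10 reads or more, where the value was 0.409 (WT) and 0.374 (del36) for the Six2 promoter and 0.501 and 0.482 for PE Six3. The share of fragments in the most distal of 5 equal parts of each chromosome, split as above, had -0.08 and 0.20, a difference of -0.28. In PE Six3 WT 56.6% of fragments were read once, against 32.7% to 37.5% in the other 3 libraries, and the part of this in the differences was not tested.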

How the results depend on the processing

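No paired analysis was possible because each viewpoint and genotype had 1 library with no replicate number to match, and for the same reason no replicate could be left out. Values are in the order Six2 promoter WT, Six2 promoter del36, PE Six3 WT, PE Six3 del36 unless said otherwise. The off-chromosome share of reads was the same with the deposited RPM. It was 6.66% and 5.79% for the Six2 promoter with the pair left out of both counts, 88.4%, 86.4%, 81.5% and 72.5% with each fragment counted once, and 75.7%, 67.3%, 24.8% and 44.6% without the viewpoint and 10 kb on each side. On chromosomes 1 to 19 and X it was 6.66% in PE Six3 WT and within the counting interval elsewhere. As a share of off-chromosome reads, the pair held 46.0% and 47.9%. The ratio of gene-dense to gene-poor bins was 3.75, 3.35, 2.67 and 2.29 with 10 reads or more; 4.81, 3.57, 3.66 and 2.08 by reads without the pair; and 1.80, 1.53, 0.839 and 1.22 per fragment seen in the 9 background libraries, where PE Six3 WT turned below 1. In bins of 500 kb it was 2.64 in Six2 promoter WT and within the interval elsewhere. With alternatives chosen after seeing the data, it was 2.01, 1.82, 1.16 and 1.50 for fragments read once and within the interval without the 6 crowded bins. Fragments recurring in both genotypes (Six2 promoter, PE Six3) numbered 880 and 57 with 10 reads or more in both, and 2411 and 454 expected after thinning. Another fragment within 10 kb, an alternative also added later, gave 1381 and 650, and 1-Mb bins covered in both numbered 2351 and 2162. Between viewpoints (WT, del36) the same counts were 6 and 29, 38.8 and 85.7, 789 and 795, and 2280 and 2200. Bins past 4-fold (Six2 promoter, PE Six3) numbered 128 and 225 by covered fragments, 596 and 861 with 100 reads or more in either library, 1075 and 1486 without the pair, and 1077 and 1324 centred on the median, the last also added later. Where a value moved, the cause was not tested. Depth limits the lists: 32.7% to 56.6% of fragments rest on 1 read, so absence from a list is not evidence of absence from the cells.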
